A study of Homo sapiens with 14 samples.

Results

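Dense clusters of NF-κB binding regions were examined in L1236, an established cell line derived from classical Hodgkin lymphoma with constitutively active NF-κB. The cells carried no engineered allele and received no treatment named in the labels, so the groups differ only in the antibody used for chromatin immunoprecipitation (ChIP). Each subunit (p50, p52, RelA or RelB) was precipitated in 2 biological replicates, beside 6 libraries of input DNA. Both replicates of a subunit shared 1 antibody, except for p52, for which Millipore #05-361 was used in one and Millipore #06-413 in the other. The values come from 1 line, and they describe merged replicates, so that no error between cultures can be given for reads or fold enrichments. The union of all called regions held 14865 binding regions. Members were selected on their positions: neighbouring regions on a chromosome were joined when the gap between them was at most 20 kb, and all regions in groups of at least 4 were kept. This rule found 2718 regions in 503 clusters, and 12147 regions lay outside. Because the positions of the called regions chose the members, the calls and enrichments below are given as a description, without a test.

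NF-κB transcription factors are dimers that bind κB sites in promoters and enhancers. RelA and RelB carry activation domains, whereas p50 and p52, which are made from the precursors p105 and p100, lack one and activate transcription mainly together with a Rel protein or a coactivator such as BCL3. The canonical pathway releases p50-RelA, and the non-canonical pathway produces p52-RelB. Several binding regions within a short distance are a known feature of loci with strong cell type specific transcription, in which distal elements and promoters lie close together.

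To show what lies inside such clusters, 4 primer pairs are given that the study designed for PCR of immunoprecipitated DNA and whose amplicons fall inside members. They are printed 5′ to 3′ in lower case without marked bases, and positions are in hg18. The CCR7 amplicon lies at chr17:35971172-35971297 in a cluster of 13 regions, the BCL3 amplicon at chr19:49942353-49942434 in a cluster of 6, the JUNB amplicon at chr19:12765301-12765393 in a cluster of 4 and the TP73 amplicon at chr1:3580450-3580570 in a cluster of 5.
CCR7_SP4: ccaacatctaggtcaaccac
CCR7_RP4: ggccttgagtcagatcatcc
BCL3_SP2: gggacacagagacagcaaca
BCL3_RP2: aacttgcctgacctccctct
JUNB_SP4: atctccagggttggatggtt
JUNB_RP4: cctgcgcactccaagtct
TP73_SP2: gcatgtctcctggttggtaa
TP73_RP2: tcagttcacactcagccaag
The CCR7, JUNB and TP73 amplicons lie in regions called for all 4 subunits, and the BCL3 amplicon lies in a region called for p50, p52 and RelB. A call belongs to the region and not to the amplicon. In the JUNB region the p52 summit, at 12765524, lay close to the amplicon, whereas the p50 summit lay 2.21 kb from it, at 12763311. In the CCR7 amplicon's region the merged libraries held 444 p50, 763 p52, 119 RelA and 197 RelB reads, and in that of TP73 512 p50, 595 p52, 84 RelA and 158 RelB reads.

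Promoters inside dense clusters are represented by the 250 bases before the transcription start site (TSS) of 3 genes whose start is overlapped by a member and that hold a κB match in this stretch, which is why they were chosen. The sequences are from RefSeq in GRCh38.p14, which is another build than that of the regions, and were joined by gene symbol. TNFAIP3 lies at chr6:137867009-137867258 on the plus strand, CFLAR at chr2:201118466-201118715 on the plus strand and B2M at chr15:44711267-44711516 on the plus strand. Capitals mark matches to the κB consensus on either strand.
TNFAIP3: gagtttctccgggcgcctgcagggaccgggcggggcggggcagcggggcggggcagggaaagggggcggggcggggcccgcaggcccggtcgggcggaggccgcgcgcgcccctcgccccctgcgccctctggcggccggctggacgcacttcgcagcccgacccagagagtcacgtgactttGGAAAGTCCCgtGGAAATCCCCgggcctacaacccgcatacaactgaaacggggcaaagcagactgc
CFLAR: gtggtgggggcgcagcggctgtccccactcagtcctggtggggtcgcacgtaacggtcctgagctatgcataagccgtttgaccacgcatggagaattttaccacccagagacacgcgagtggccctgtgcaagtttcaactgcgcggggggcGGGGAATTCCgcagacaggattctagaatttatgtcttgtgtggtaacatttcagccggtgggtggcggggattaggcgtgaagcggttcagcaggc
B2M: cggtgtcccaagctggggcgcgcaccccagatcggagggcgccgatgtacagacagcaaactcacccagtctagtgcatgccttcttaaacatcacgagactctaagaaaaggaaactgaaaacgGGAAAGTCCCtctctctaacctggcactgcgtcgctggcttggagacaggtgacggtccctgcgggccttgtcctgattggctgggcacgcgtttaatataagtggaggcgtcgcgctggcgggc
TNFAIP3 holds 2 matches that start 67 and 55 bases before its TSS. The CFLAR match starts 97 and the B2M match 125 bases before the TSS. Of the 264 members that overlap a TSS, 62 had a gene symbol, and 48 of these had a sequence that was searched here. In the windows of 300 bases around their start sites, from 250 before to 50 after, 8 of 48 (16.7%) held a match, compared with 2075 of all 35116 promoters in the table (5.91%). No such share is given for regions outside dense clusters that overlap a TSS, so the difference cannot be tied to dense clusters. The symbols come from tables the study chose, which also limits the comparison. A match describes letters in the window and not a bound site, and promoters without a match are not shown thereby to lack one nearby.

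The clusters ranged from 4 to 21 regions. There were 244 clusters with 4 regions, 104 with 5, 69 with 6 and 86 with 7 or more. They spanned a median of 27.9 kb, between 4.46 and 160.4 kb, and called regions covered a median of 19.1% of this span. Outside the dense clusters, 6978 regions stood alone, 1692 pairs and 595 groups of 3 were found. Near the limits of the rule, the largest gap inside a dense cluster was 19992 bp and the smallest gap that was not joined anywhere in the union was 20007 bp, and the number of groups fell from 595 with 3 regions to 244 with 4. Of the 2215 gaps inside dense clusters 228 (10.3%) exceeded 15 kb, and the median gap was 3750 bp. Dense clusters held 22.4% of the p50 reads, 24.6% of the p52 reads, 27.8% of the RelA reads and 26.4% of the RelB reads in the union, in 20.6% of its length. RelB-led clusters, described below, held 9.60% of the RelA and 6.49% of the RelB reads in 1.51% of the length. Without them the shares of RelA and RelB came below those of p50 and p52, with 21.1% of the p50, 23.0% of the p52, 18.2% of the RelA and 19.95% of the RelB reads in 19.1% of the length. In all, 1654137 p50, 1810792 p52, 315151 RelA and 470788 RelB reads lay in union regions of the merged libraries. The sources used here do not say whether reads were counted before or after the libraries were reduced in size, so reads are compared within a library, and differences in reads between libraries may reflect their depth.

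Among all union regions, p50 was called in 73.8%, p52 in 73.3%, RelB in 26.8% and RelA in 3.31%. In all dense clusters, p50 was called in 1920 regions (70.6%, 95% Wilson interval 68.9 to 72.3), p52 in 2164 (79.6%, 78.1 to 81.1), RelB in 957 (35.2%, 33.4 to 37.0) and RelA in 152 (5.59%, 4.79 to 6.52). Regions outside had 74.5% p50, 71.9% p52, 24.9% RelB and 2.80% RelA calls. The p50 share was below that of the whole union, and the shares of the other subunits were above it. The intervals cover counting error only, and neighbouring regions of a cluster are not independent of each other.

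The dense clusters fell into different kinds. In 18 clusters RelB was called in more regions than p50 and in more than p52. These RelB-led clusters, a split made after the values were seen, held 202 regions, and the other 485 clusters held 2516. With calls of a fold enrichment of at least 5, 11 RelB-led clusters with 82 regions were found, and with calls at an IDR below 0.001, 14 with 117 regions. RelB was ahead by 3 or more regions in 17 of them and by 1 or 2 in the remaining 1, whereas it was level with the larger of p50 and p52 in 13 clusters and behind by 1 region in 33. RelB-led clusters were among the largest: 5 of the 6 clusters with the most regions were of this kind, at chr10:41675961-41738485 with 21 regions, chr2:91632583-91688148 with 20, chr4:48787931-48851906 with 19, chrY:11913043-11950247 with 18 and chr16:44943251-44993211 with 18. Chromosome Y had 40 members among its 51 regions, and they all lay in RelB-led clusters.

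In the RelB-led clusters RelB was called in 199 of 202 regions (98.5%), RelA in 61 (30.2%), p52 in 32 (15.8%) and p50 in 11 (5.45%). That RelB calls outnumber those of p50 and p52 follows from the split, which also favours regions without p50 and p52 calls. RelB alone was the call in 134 regions, and RelA together with RelB but without p50 and p52 in 31. These 31 were 70.5% of the 44 regions in the whole union with that combination. The median RelB fold enrichment, the ratio of ChIP to input at the summit, was 4.88 in RelB-led clusters, 10.7 in the other dense clusters and 9.12 outside. The local background, taken here as the deposited pileup over the fold enrichment and thus the number of fragments that the input predicts at the summit, was 7.83 for RelB in RelB-led clusters, compared with 3.02 in the other dense clusters and 2.81 outside. These medians cover only the regions called for the subunit. For p50 the local background was 19.9 over the 11 p50-called regions, compared with 3.69 over 1909 in the other dense clusters and 3.32 outside. In 10 of the 18 clusters no region was called for p50, so this value does not describe RelB-led clusters as a whole. For RelB, the RelB-led clusters therefore combined low ratios with high background. When regions with a local background over 5 times the median of a subunit called in them were left out and the clusters rebuilt, 17 RelB-led clusters with 153 regions remained. The 134 regions called for RelB alone were judged by their RelB background only. The RelB median of 7.83 lay below this limit, so most RelB-led regions could not be removed through RelB. What remained therefore does not show clusters free of high background.

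**Figure D1:**
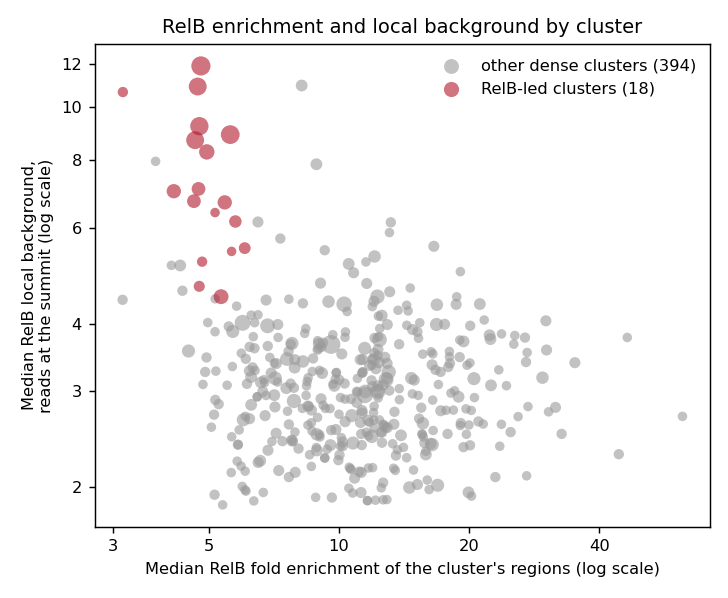
Median RelB fold enrichment (x axis, log scale) and median RelB local background in fragments at the summit (y axis, log scale) of each dense cluster with a RelB call; point area grows with the number of regions. The 18 RelB-led clusters (red) lie at low fold enrichment and high background, whereas most of the 394 other clusters (grey) lie lower on the background axis.

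The reads themselves differed between these kinds of cluster. RelB-led regions held a median of 73.7 p50, 101.3 p52, 111.5 RelA and 109.7 RelB reads per kb. The medians of the other dense clusters were 98.05 p50, 110.2 p52, 17.4 RelA and 23.5 RelB reads per kb. Reads of RelA and RelB per kb were thus several times higher in RelB-led regions than in the other dense clusters, and reads of p50 and p52 were lower. The split on calls itself favours higher RelB and lower p50 and p52 reads. Reads were also not corrected for the local background, so these differences are no separate finding. In the cluster at chr10:41675961-41738485, for example, the region at 41703324 to 41705886 held 471 p50, 713 p52, 646 RelA and 1018 RelB reads. The first region of the same cluster held 153 p50, 240 p52, 241 RelA and 271 RelB reads and was called for RelB alone.

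**Figure D2:**
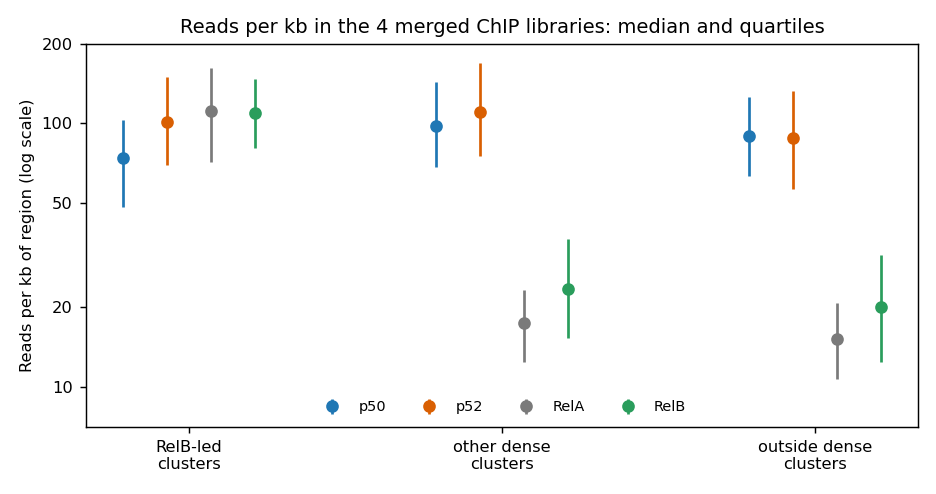
Reads per kb of region (log scale) of the 4 merged ChIP libraries in RelB-led clusters, the other dense clusters and regions outside; points are medians and bars run from the first to the last quartile. The 4 medians lie between 73.7 and 111.5 in RelB-led clusters, and within a library RelA and RelB lie lower in the other groups. Levels of different libraries depend on their depth, and the split itself favours higher RelB and lower p50 and p52 reads in RelB-led clusters.

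RelB-led clusters also stood apart in position. Only 2 of their 202 regions lay within 1 kb of a TSS and 1 overlapped a gene, and the median distance to the closest TSS was 188 kb. For 8 of the 202 regions no gene lay within the 1 Mb that the authors searched. In 11 of the 18 clusters the next called region on one side was more than 1 Mb away, which held for 20 of the other 485 clusters (4.12%). The cluster at chr16:44943251-44993211 followed a stretch of 9856 kb without any called region, that at chr11:51423698-51448099 preceded one of 5398 kb, and that at chrY:12310916-12380190 preceded one of 44856 kb. Whether these stretches hold sequence to which reads map uniquely was not tested. The signal values of the 2 RelB replicates had a Spearman correlation of 0.72 across the 199 RelB-called regions, compared with 0.56 across 758 in the other dense clusters. Both are descriptions across regions that share their libraries. Signal that both replicates share through high background was not separated from binding.

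RelA calls were also frequent there. The 3 clusters with the most RelA calls were chr16:44943251-44993211 with 12 of 18 regions, chr2:132713560-132752722 with 10 of 13 and chrY:11913043-11950247 with 9 of 18. The median RelA fold enrichment was 3.36 in RelB-led clusters and 7.37 in the others. Outside the RelB-led clusters no dense cluster had more than 3 RelA-called regions, and those with 3 lay at CCR7, at JUNB and at chr14:102290503-102356309.

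In the 485 other clusters p50 was called in 1909 of 2516 regions (75.9%, 95% Wilson interval 74.2 to 77.5), p52 in 2132 (84.7%, 83.3 to 86.1), RelB in 758 (30.1%, 28.4 to 32.0) and RelA in 91 (3.62%, 2.96 to 4.42). The p52 share was higher than the 71.9% outside, the RelB share was higher than 24.9%, and the p50 interval overlapped that outside (73.8 to 75.3). Leaving out clusters in which RelB outnumbered p52 raises the p52 and lowers the RelB share by construction. In all dense clusters the difference to regions outside was 7.756 percentage points for p52 and 10.29 for RelB. The p52 share was 67.1% in single regions, 77.2% in pairs, 80.4% in groups of 3, 83.7% in clusters of 4, 85.9% in clusters of 5, 86.0% in clusters of 6 and 84.6% in clusters of 7 or more without the RelB-led ones. Most of this difference therefore lay between single regions and groups of any size. The p50 share ran from 72.7% in clusters of 5 to 80.1% in clusters of 6, with 74.7% in single regions.

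**Figure D3:**
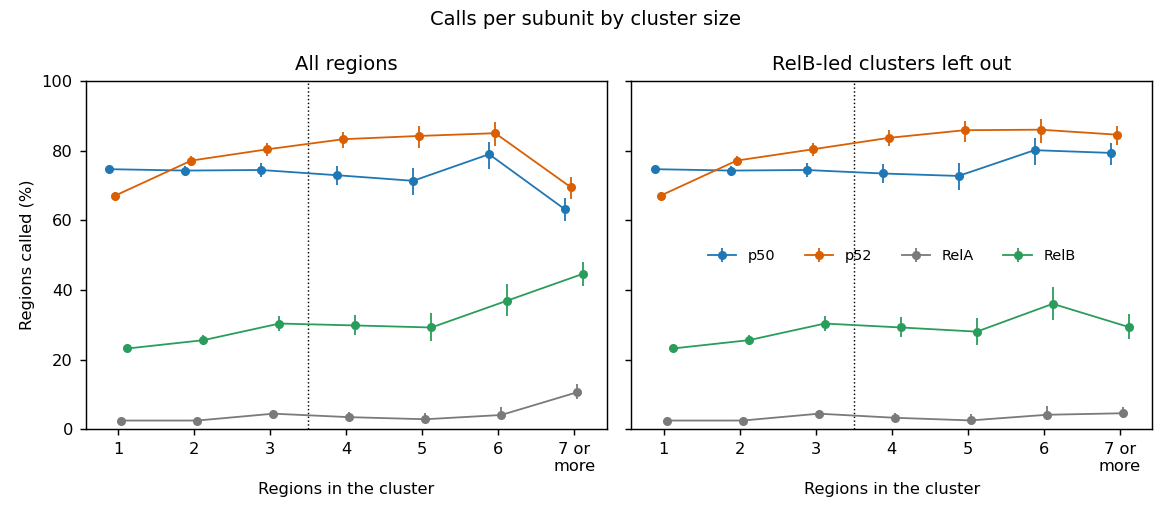
Share of regions called for each subunit (y axis, percent) by the number of regions in their cluster (x axis), for all regions (left) and without RelB-led clusters (right); bars are 95% Wilson intervals and the dotted line marks the lower limit of a dense cluster. The p52 share goes from 67.1% in single regions to 83.7% in clusters of 4, and the drop of p50 and p52 at 7 or more regions is seen only with the RelB-led clusters included.

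Combinations of subunits differed as well. p50 with p52 was the call in 876 of the 2516 regions (34.8%, compared with 31.7% outside), and p50, p52 and RelB together in 584 (23.2%, compared with 16.1%). All 4 subunits were called in 84 regions (3.34%, compared with 2.11%). p50 alone was the call in 344 regions (13.7%, compared with 23.2% outside), and p52 alone in 533 (21.2%, compared with 19.8%). RelB alone was the call in 22 regions (0.874%, compared with 3.41%), a share lowered by leaving out the RelB-led clusters: in all dense clusters it was 5.74%. Regions with p50 alone were thus less frequent in these clusters than outside, and regions with p50, p52 and RelB more frequent.

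Members of the 485 clusters lay less often directly at promoters than regions outside, although their median distance to the closest TSS was shorter, with 18.3 kb compared with 21.6 kb. Of the 2516 regions 335 (13.3%, 95% Wilson interval 12.0 to 14.7) lay within 1 kb of a TSS, compared with 21.8% of the regions outside (21.1 to 22.6) and 24.1% of single regions. Within 10 kb the shares were 35.2% and 38.3%, and within 100 kb 85.5% and 81.6%. No member of 270 of the 485 clusters lay within 1 kb of a TSS, 138 clusters had 1 such member and 77 had at least 2. A member overlapped a gene in 57.7% of cases, compared with 59.0% outside.

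Since p50 alone was the most frequent call near start sites outside the clusters, the shares were also compared at equal distance. Over 1 kb from a TSS, p52 was called in 87.5% of 2181 members (86.0 to 88.8) and in 76.9% of 9495 regions outside (76.1 to 77.8), and p50 in 73.1% (71.2 to 74.95) and 69.4% (68.5 to 70.3). Within 1 kb, p52 was called in 66.9% of 335 members (61.7 to 71.7) and in 53.7% of 2652 regions outside (51.8 to 55.6), and p50 in 93.7% and 92.9%. The p52 share of members was higher in both strata. RelB-led clusters were left out here, which raises the p50 and p52 shares of members by construction. With all dense clusters the p52 difference over 1 kb was smaller and the p50 difference was negative, as given in the last section. p50 alone was the call in 31.6% of members and 41.0% of regions outside within 1 kb, and in 10.9% and 18.2% beyond it.

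Fold enrichments of members and other regions were close. In the 485 clusters the median was 17.95 for p50 (quartiles 12.4 and 27.2), compared with 16.6 outside. For p52 it was 18.3 (12.4 and 30.4), compared with 17.1 outside. For RelB it was 10.7 (7.08 and 15.6), compared with 9.12 outside, and for RelA 7.37 (6.37 and 8.93), compared with 6.29. All 4 medians were higher in the clusters, by less than the distance between the quartiles. With the RelB-led clusters included the RelA median was 5.81 and the RelB median 8.73, both below those outside. The local background of the 485 clusters was higher than outside in p50 (3.69 and 3.32), p52 (3.31 and 3.04) and RelB (3.02 and 2.81), and lower in RelA (3.05 and 3.12). Members had a median width of 974 bp, compared with 845 bp outside.

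The balance of p50 and p52 was taken as the log2 ratio of p50 to p52 reads in a region, with 1 read added to each, minus the median over the union, so that values above 0 lean toward p50. Its median was -0.19 in the 485 clusters (quartiles -0.72 and 0.43) and 0.07 outside. More than a 2-fold lean toward p50 was found in 284 members (11.3%), compared with 21.4% outside, and toward p52 in 356 (14.1%), compared with 14.4%. The difference between members and other regions lay mainly in fewer regions with a strong lean toward p50. Within 1 kb of a TSS the median was 0.68 in these clusters, 0.82 in groups of 2 or 3 and 0.97 in single regions. Beyond 1 kb it was -0.31, -0.31 and -0.07. Beyond 1 kb, the dense clusters thus did not stand apart from smaller groups, and the single regions did.

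**Figure D4:**
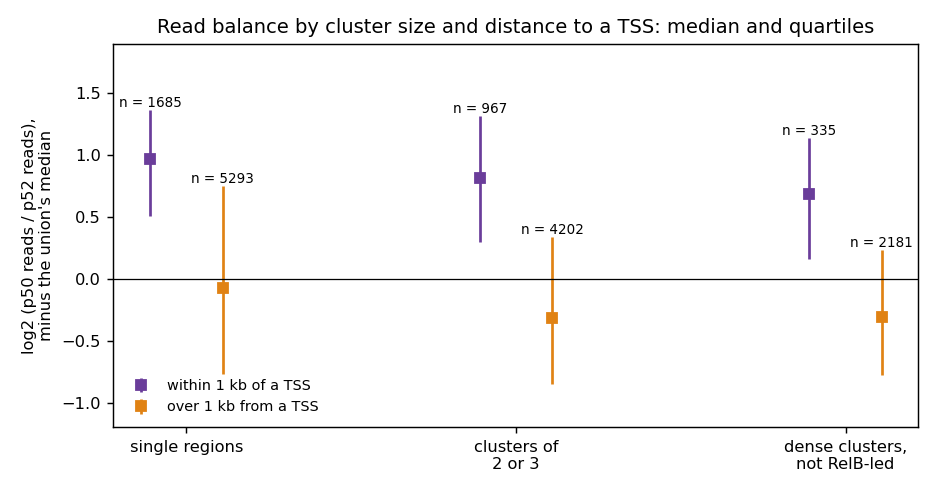
Balance of p50 and p52 reads (y axis, log2 ratio minus the median of the union; above 0 leans toward p50) for single regions, groups of 2 or 3 and dense clusters that are not RelB-led, by distance to the closest TSS; squares are medians, bars quartiles and n the number of regions. Medians are 0.97, 0.82 and 0.68 within 1 kb and -0.07, -0.31 and -0.31 beyond it.

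Members of 1 cluster often had different combinations of subunits. Among the 2031 pairs of neighbours in the 485 clusters, 584 (28.8%) had the same combination of subunits, compared with 27.0% of 2882 neighbouring pairs in groups of 2 or 3. The frequencies of the combinations alone would give 24.0% and 22.7%, so that neighbours were somewhat more alike than unrelated regions, and the balance of neighbours in the 485 clusters had a Spearman correlation of 0.31 as a description. In 356 clusters (73.4%) at least 3 different combinations were found, and in 10 only 1. p52 was called in 86.5% of regions that followed a p52-called neighbour and in 75.2% of those that followed a neighbour without it. For RelB the values were 35.0% and 28.5%, and for RelA 7.04% and 3.72%. The standard deviation of the balance within clusters was 0.75, compared with 0.87 over all members. In 366 clusters the balance lay on both sides of 0, in 80 every member leaned toward p52 and in 39 every member leaned toward p50.

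The strength of binding varied within clusters as well. In the 477 clusters with at least 2 p52-called regions, the strongest had a median of 3.41 times the fold enrichment of the weakest (quartiles 2.30 and 4.90), and for p50 the median was 2.63 in 463 clusters. The strongest p52 region of a cluster carried a RelB call in 303 of 484 cases (62.6%), compared with 25.2% of the 1648 other p52-called members. It lay within 1 kb of a TSS in 46 cases (9.50%), compared with 10.8% of the others. RelB calls thus went with the strongest p52 region, whereas closeness to a TSS did not. RelB calls need a RelB signal above input, and their dependence on the general strength of a region was not tested.

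The signal values of both replicates, a score that the authors' peak comparison used, agreed more closely for p50 and p52 than for the Rel proteins. Across members of the 485 clusters Spearman's rho was 0.76 over the 1909 p50 calls, 0.82 over the 2132 p52 calls, 0.56 over the 758 RelB calls and -0.01 over the 91 RelA calls, for which Pearson's r was 0.29. Outside, rho was 0.70, 0.75, 0.45 and 0.02. These are correlations across regions of the same libraries and are given as a description. The median p52 signal values in these clusters were 249.3 and 498.3, and the table does not tell which of them belongs to which p52 antibody. The order of RelA strengths among members, given below, thus rests on the merged libraries alone.

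Named loci were described by the closest gene or closest TSS that the authors assigned. Of 8450 gene identifiers in the union 1136 could be paired with a symbol, and at dense clusters 171 of 823, so that many loci are given by position only. Dense clusters touched 9.74% of all genes with a region, and 15.1% of the 1136 genes with a symbol. Of 191 genes on 11 lists of NF-κB signalling, cytokines, surface receptors, apoptosis, transcription factors and controls, 74 had a symbol and a region, and 29 of these (39.2%) lay at a dense cluster. Genes with many regions are more likely to have a cluster, and the symbols come from tables the study chose, so that these shares cannot be read as enrichment. By list, dense clusters touched 2 of 8 genes for NF-κB subunits and IκB proteins, 3 of 6 signalling regulators, 5 of 10 cytokines and their receptors, 2 of 8 chemokines and their receptors and 6 of 7 genes for TNF family members, costimulation and adhesion. They touched 2 of 8 apoptosis regulators, 3 of 5 genes of the AP-1 and ATF family, 3 of 13 B cell and related transcription factors, 1 of 5 genes of JAK-STAT signalling, 0 of 2 cell cycle genes and 2 of 2 housekeeping genes.

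Among negative regulators of NF-κB, TNFAIP3, which encodes the ubiquitin-editing enzyme A20, had 17 of its 18 regions in 3 dense clusters over 205 kb on chromosome 6. p52 was called in 16 of these 17 regions, p50 in 10, RelB in 4 and RelA in 1. The region over its TSS, at chr6:138228897-138231250, held 420 p50, 411 p52, 97 RelA and 244 RelB reads, and its fold enrichments were 53.4, 58.4, 18.9 and 41.0. Its RelB signal values were 2573 and 2233 in the 2 replicates, so that both were high. The strongest p52 region of the locus was another one, 5.72 kb downstream of the TSS at chr6:138235995-138236698, with a p52 fold enrichment of 68.6. The 5 regions of the most distant upstream cluster, at chr6:138098560-138110029, had no RelB call, and their balance ran from -1.32 to -0.23. TNIP1, whose product binds A20, had all 7 regions in 1 cluster, with 7 p50, 5 p52, 4 RelB and 2 RelA calls and a median balance of 0.43.

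BCL3, a nuclear IκB protein that binds p50 and p52 homodimers, had 5 of 5 regions in a cluster of 6 at chr19:49917086-49949891. Of these 6 regions 5 were called for p50, p52 and RelB together, and the remaining region for p52 alone. The region over the TSS held 820 p50, 785 p52, 64 RelA and 298 RelB reads. Its signal values were 2454 and 1258 for p50, 833 and 3227 for p52 and 247 and 704 for RelB. The p50 and p52 fold enrichments of the 5 triple-called regions ran from 17.4 to 70.0 and from 18.5 to 68.0, and their balance lay between -0.21 and 0.16. The region called for p52 alone had a balance of -0.49. NFKB1, which encodes p105, had 4 of 7 regions in a cluster with 2 p50 and 2 p52 calls and no RelB call. TRAF1, an adaptor of TNF receptor signalling, had 5 of 5 regions in a cluster that spanned 11.9 kb. All 5 were called for p50 and p52, and 4 for RelB, with the highest p52 fold enrichment, 57.9, in the region 1.60 kb from the TSS.

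CCR7, the chemokine receptor that guides lymphocytes to lymph nodes, lay in the cluster of 13 regions at chr17:35940659-36026246. All 10 regions assigned to CCR7 were members, and the 13 regions had 12 p52, 9 p50, 9 RelB and 3 RelA calls. The region over the TSS, at chr17:35972415-35975670, was not the strongest: its fold enrichments were 16.2 for p50, 16.3 for p52 and 5.90 for RelB. The strongest region, at chr17:36007573-36009879 and 32.3 kb from the TSS, had fold enrichments of 53.3 (p50), 80.3 (p52), 8.81 (RelA) and 26.9 (RelB). It held 426 p50, 757 p52, 72 RelA and 160 RelB reads. Its signal values were 2066 and 1555 for p50, 922 and 4208 for p52, 189 and 33.1 for RelA and 689 and 1560 for RelB. The first region, at chr17:35940659-35941861, had a RelB fold enrichment of 25.3 and a p52 fold enrichment of 13.6 and no p50 call, although it held 70 p50 reads. The balance ran from -1.22 to 0.77 with a median of -0.68.

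**Figure D5:**
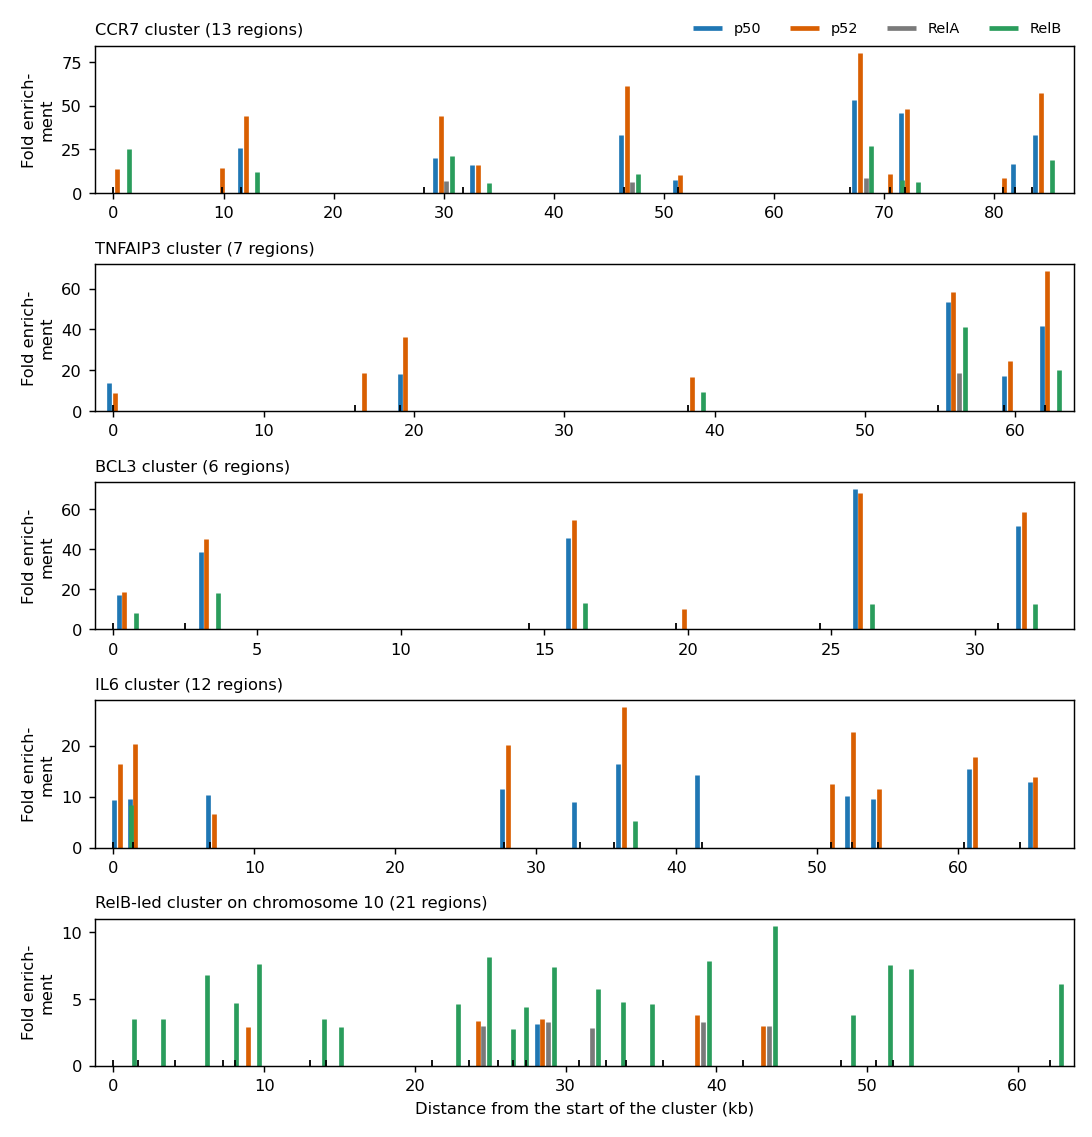
Fold enrichment (y axis) of each called subunit in the regions of 5 dense clusters, by distance from the start of the cluster in kb (x axis); ticks on the base line mark region starts, and the bars of 1 region are set side by side for legibility. p52 exceeds RelB in nearly all regions at CCR7, TNFAIP3, BCL3 and IL6, whereas the cluster on chromosome 10 shows RelB bars of 2.79 to 10.5 and few others.

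Among genes for costimulatory and adhesion molecules, CD70, the ligand of CD27, had 4 of 4 regions in a cluster, with p50 and p52 fold enrichments of up to 78.4 and 78.9 at its TSS. CD40 had 2 of 2 regions in a cluster of 4, both called for p50, p52 and RelB. CD80 had 3 of 3 and CD86 4 of 5, all called for p50 and p52. CD44 had 4 of 11, with a median balance of -1.16. ICAM1, an adhesion molecule, had 2 of 2, and the region over its TSS was called for all 4 subunits with 477 p50, 351 p52, 62 RelA and 122 RelB reads.

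Among cytokine genes, IL6 had 11 of 14 regions in the cluster at chr7:22667938-22734872, which had 12 regions in all, and none of the 11 lay within 1 kb of its TSS. The nearest lay 1.72 kb away and held 235 p50, 397 p52, 32 RelA and 51 RelB reads. The highest p52 fold enrichment, 27.6, was 26.7 kb from the TSS, and RelB was called in 2 of the 12 regions, with fold enrichments of 8.38 and 5.31. The IL6 cluster thus had many regions of moderate strength. CSF2, which encodes GM-CSF, had 8 of 8 regions in a cluster of 9, with a p52 fold enrichment of up to 69.8. LTA, which encodes lymphotoxin alpha, had 3 of 3, and IL21R, the receptor of interleukin 21, 6 of 7.

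CFLAR, which encodes the caspase 8 inhibitor cFLIP, had 6 of 6 regions in a cluster that spanned 17.2 kb. p50 and p52 were called in all 6 and RelB in 5, the highest RelB share together with BCL3 among clusters of at least 5 regions that were not RelB-led. The region over the TSS held 305 p50, 329 p52, 88 RelA and 142 RelB reads, and it was the member with the RelA call. The p52 fold enrichment was 24.8 at the TSS and 68.7 in the region 12.7 kb from it. BCL2A1, an antiapoptotic BCL2 relative, had 4 of 4 regions in a cluster, with 4 p52, 2 p50 and 1 RelB calls. BCL2, with 10 regions, had none in a dense cluster.

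JUNB, an AP-1 subunit, lay in a cluster of 4 regions at chr19:12753828-12766215, in which RelB was called in all 4, p50 in 4, p52 in 3 and RelA in 3. The region over its TSS held 875 p50, 891 p52, 155 RelA and 393 RelB reads. Its fold enrichments were 102.0 for p52, 48.9 for RelB and 14.3 for RelA but 9.35 for p50, and the p50 summit lay 2.21 kb from the p52 summit within the same wide region. The fold enrichment of p50 there belongs to another position than that of the other subunits. Summits that lay over 500 bp apart were found in 95 of the 1616 members called for at least 2 subunits (5.88%) in clusters that were not RelB-led, and in 4.03% outside. BATF had 9 of 9 regions in a cluster of 10, with 9 p52, 8 p50, 3 RelB and 1 RelA calls, and ATF3 7 of 7 in a cluster of 9, with 5 p50 and 5 p52 calls and 1 RelB call.

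ETS1, a lymphoid transcription factor, had 18 of 21 regions in 3 dense clusters over 227 kb, none of them within 1 kb of its TSS. p52 was called in 17 of the 18, p50 in 8 and RelB in 3, and the median balance was -0.72. The region at chr11:127693591-127694562, with the highest p52 fold enrichment of the locus, had 37.3 for p50, 58.1 for p52 and 30.2 for RelB and lay 254 kb from the TSS. TCF3, which encodes E2A, had 5 of 5 regions in a cluster, and IRF2 4 of 7. Other transcription factor genes had many regions but no cluster under this rule: FOXP1 had 18 regions, BCL11A 11, and PAX5, PRDM1 and RUNX1 8 each. NFKBIA, which encodes IκBα, had 3 regions in a group of 3, just outside the rule, and CXCR4 10 regions in groups of at most 3.

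The members with the highest fold enrichment of each subunit were also examined. For p50 and p52 it was the same region, at chr19:10357268-10358532, whose closest TSS is that of TYK2, a Janus kinase, at 7.15 kb. Its fold enrichments were 99.95 for p50, 117 for p52, 17.9 for RelA and 38.1 for RelB, with 450 p50, 574 p52, 53 RelA and 150 RelB reads. The strongest RelB member, with 62.2, lay over the TSS of ANKRD33B at chr5:10615338-10619266 and held 867 p50, 851 p52, 83 RelA and 395 RelB reads. The strongest RelA member, with 47.4, lay on chromosome 8 in a cluster of 4 and held 544 p50, 539 p52, 489 RelA and 489 RelB reads. No strongest member lay in a RelB-led cluster.

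Among the 10 clusters with the most regions, 4 were not RelB-led. The largest had 20 regions over 160.4 kb on chromosome 8, with 17 p50, 17 p52 and 4 RelB calls. None of its members lay within 1 kb of a TSS. The others were 1 of 15 regions at chr16:11118927-11258544, 1 of 14 at chr1:224888031-224958242 inside ITPKB, and the CCR7 cluster. The chr16 cluster had 14 p52, 11 p50, 5 RelB and 1 RelA calls over 139.6 kb. The ITPKB cluster, at a gene that encodes an inositol trisphosphate kinase, had 13 p52, 12 p50 and 8 RelB calls and no member within 1 kb of a TSS. A further cluster of 13 regions, at LMNA (chr1:154333040-154401873), tied with the last of these and had 13 p50, 12 p52 and 4 RelB calls. All 5 of these clusters had more p52 calls than RelB calls, which leaving out RelB-led clusters favours by construction.

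Clusters with a strong lean had different settings. The 3 with the highest median balance among clusters of at least 5 regions lay at chr6:26128504-26165268 (1.73, 6 regions), chr6:26283800-26360346 (1.69, 9 regions) and chr19:54158142-54189153 (1.46, 5 regions). In the first, 5 of 6 regions lay within 1 kb of a TSS, p50 was called in 6 and p52 in 1, and neither RelA nor RelB in any. In the second, 6 of 9 regions lay within 1 kb of a TSS, and p50 was called in 8 and p52 in 3. The 3 with the lowest median balance lay at chr7:148239633-148267805 (-1.47, 5 regions), chr20:49438129-49487966 (-1.43, 6 regions) and chr7:92079238-92116044 (-1.42, 6 regions). No member of these lay within 1 kb of a TSS, p52 was called in every member, p50 in 3 members of each, and RelB in 3, 2 and 4. In every member of these 3 clusters p52 reads outnumbered p50 reads, for example 120 p52 and 38 p50 reads at chr7:148267056-148267805.

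Of 12 control genes on the list, only ACTB and B2M could be paired with an identifier, and both were at dense clusters as well. The remaining control genes could not be examined, so nothing is shown for control genes in general. ACTB, which encodes beta actin, had 7 of 7 regions in a cluster of 12 at chr7:5531853-5598289. The study used a further primer pair, for ACTB, as a reference and described its target as non-recruiting. The product of this pair falls into the region over the TSS. Binding at the product itself, which covers only part of this region, was not examined. The authors called this region for p50 and no other subunit, and it held 472 p50, 116 p52, 78 RelA and 71 RelB reads. Another region assigned to ACTB had a p52 fold enrichment of 77.5. B2M, which encodes the light chain of MHC class I, had 4 of 4 regions in a cluster of 5, with 4 p52, 3 p50 and 3 RelB calls.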

How the data were processed

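Chromatin from L1236 cells was sequenced after ChIP for p50, p52, RelA or RelB, with input DNA as background. Reads were aligned by the authors with Bowtie (hg18), who kept uniquely mapping reads, removed duplicates with SAMtools, reduced the libraries in size by random sampling, called peaks with MACS and compared replicates by the irreproducible discovery rate (IDR). CASAVA is named in the submitters' processing notes, and tool versions are not given in the sources used here.

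Read counts were deposited per union region for the merged replicates of a subunit and are not normalized. The deposited fold enrichment is a ratio of merged ChIP to input at the summit, and the deposited pileup is the coverage signal there. The authors give the IDR as a fraction and the FDR of MACS as a q-value. Each replicate also has a deposited signal value, a score on an unnamed scale whose assignment to the first or second antibody or replicate is not stated. Distances to genes and TSS are the authors', from Ensembl annotation. Calls are those of the authors.

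Regions were sorted and joined as described, and shares, medians, Wilson intervals and rank correlations were computed in Python 3.11.15 (pandas 2.3.3, numpy 2.4.6, scipy 1.17.1), and figures were drawn with matplotlib 3.10.9. The joining step and the intervals were tested on simulated data. No group comparison was tested: the members were chosen by the positions of called regions, regions are not replicates, and reads and fold enrichments exist only for merged libraries. The members and gene lists were chosen with earlier results of these data known. Loci named were the 10 clusters with the most regions, those with the highest and lowest median balance, the most RelA calls or the highest RelB share, the strongest member per subunit, and genes of the lists at a dense cluster. As RelB-led clusters took many of these ranks, the clusters ranked without them were added after the values were seen. The reads per union region set the precision, the lowest being those of RelA. Gene symbols were paired with identifiers through the study's own tables, since none matched the list of RefSeq genes, and no genome of hg18 was used here. Alternatives were other gaps and cluster sizes, stricter calls, equal weights of clusters and other measures of strength.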

Additional observations from a re-analysis of the deposited data

How the results depend on the processing

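Shares, medians and counts were recomputed under 156 combinations of result and alternative. With other gaps or sizes the rule found other numbers of regions and clusters by construction: 1439 regions in 278 clusters with gaps of at most 10 kb, 5703 in 938 with gaps of at most 50 kb, 4503 in 1098 with at least 3 regions, 1222 in 155 with at least 6, 1660 in 305 without regions called for p52 alone and 1356 in 265 with calls at an IDR below 0.001, an alternative chosen after seeing the data. An IDR below 0.01 left out nothing, since no deposited IDR exceeded it.

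The difference in the p50 share (dense minus outside, percentage points) was -3.905. It reversed to 0.6375 with the 50 kb gap and to 1.329 without the RelB-led clusters, also chosen after seeing the data; by construction the latter removes 202 regions of which few had a p50 call. It was -10.04 with the 10 kb gap, -5.815 with at least 6 regions, -1.561 at a fold enrichment of at least 5, -2.047 with clusters weighted equally and -2.007 over 1 kb from a TSS. The p52 difference (7.756) was positive throughout, with 4.117 for the 10 kb gap, 9.533 for at least 3 and 1.563 for at least 6 regions, 9.737 at a fold enrichment of at least 5, 5.556 at the stricter IDR, 12.3 with equal weights, 4.491 over 1 kb from a TSS and 12.88 without RelB-led clusters. The RelA difference (2.793) was 4.337 and 1.543 with the 10 and 50 kb gaps, 5.578 with at least 6 regions, 1.131 at a fold enrichment of at least 5, 1.581 without high background, 1.658 with equal weights and 0.8178 without RelB-led clusters. The RelB difference (10.29) was 12.72 and 6.843 with these gaps, 16.63 with at least 6 regions, 8.019 at a fold enrichment of at least 5, 8.245 with equal weights and 5.207 without RelB-led clusters. The share within 1 kb of a TSS differed by -9.434 points, by -11.26 and -5.455 with the 10 and 50 kb gaps and by -7.545 within 5 kb.

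The log2 ratio of median fold enrichments for p50 (0.1042) was 0.02675 with at least 6 regions, 0.0349 at the stricter IDR, 0.237 for pileup and 0.293 and 0.2042 for the signal values. For p52 (0.07595) it was 0.2768 for pileup, 0.1952 and 0.2773 for the signal values and 0.1865 for reads per kb. For RelA, all dense clusters together were lower than outside (-0.1129), with -0.5903 for the 10 kb gap, -0.5862 for at least 6 regions and -0.9003 at the stricter IDR. They were higher without high background (0.1447), with equal weights (0.1745), without RelB-led clusters (0.2303), for pileup (0.5384), for the signal values (0.418 and 0.3426) and for reads per kb (0.3212). For RelB (-0.06189) the ratio was -0.3503 and 0.04479 with the gaps, 0.03713 and -0.3589 with at least 3 and 6 regions, 0.09262 at a fold enrichment of at least 5, -0.1673 at the stricter IDR, 0.2248 with equal weights, 0.344 for pileup, 0.2775 and 0.308 for the signal values, 0.2679 for reads per kb and 0.2298 without RelB-led clusters. The direction of the RelA and RelB medians thus depended on these choices; the cause was not tested. The balance differed by -0.2783, by -0.3476 and -0.2035 with the gaps, -0.3351 with equal weights, -0.119 over 1 kb from a TSS and -0.1605 as a ratio of fold enrichments.

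Neighbours shared a combination of subunits in 31.15% of pairs in all dense clusters, in 28.75% without RelB-led clusters and in 27.0% of pairs in groups of 2 or 3.

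No paired analysis was possible because the table holds merged libraries, and no replicate was left out for the same reason. The fewer reads of RelA and RelB limit what their calls can show, and the absence of a call does not show the absence of binding.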
